A study of Mus musculus with 6 samples.

Results

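The genes described here are p53 (Trp53), its inhibitor Mdm2 and 8 classic p53 target genes, Ccng1, Phlda3, Trp53inp1, Bbc3, Bax, Pmaip1, Zmat3 and Aen, with Cdkn1a left out of the set by definition. They were taken as all probes whose annotated gene symbol is on that list, which gave 19 probes for 8 of the 10 genes out of 25697 probes on the array. Trp53 and Bax, to which the annotation used here assigned no probe, were not analysed here. The study measured total RNA of TUBO cells, an epithelial line from a breast tumour of a female BALB-neuT mouse (a transgenic strain that develops mammary tumours), on 6 single-colour Illumina arrays. Both groups were the same line grown as an adherent layer without further treatment. The 3 arrays titled TDA were, by title and growth protocol, cells in Dulbecco's Modified Eagle Medium with 20% fetal calf serum. The 3 arrays titled TMA were cells in mammosphere medium, a serum-free DMEM-F12 with bFGF and EGF at 20 ng/ml each, with bovine serum albumin at 0.4% and with insulin at 5 μg/ml. The source names of the samples state the opposite media, so each difference below is that of arrays titled TMA minus arrays titled TDA, and no direction is tied to a medium. All values come from 1 cell line. The labels leave unsaid whether replicates came from different cultures, and the p-values then reflect only the spread among these samples, which could be technical.

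The p53 protein is a transcription factor that is kept scarce by Mdm2, a ubiquitin ligase that marks it for destruction. When DNA damage, oncogene activity or ribosome stress blocks that ligase, p53 accumulates and switches on genes that halt division, repair DNA or kill the cell, and it also switches on Mdm2 itself, which closes a negative feedback loop. In mammary epithelium p53 is a major tumour suppressor, and the messenger RNA levels of its targets are often read as a measure of its activity, although each target also answers to other factors.

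Promoter sequences are shown for 4 measured members to let the reader see the letters that p53 is known to read, a 10-base half-site that is its own reverse complement and is usually found as a pair. RefSeq windows of 300 bases, from 250 before to 50 after an annotated start, were in the table used for 5 of the 8 measured members, on build GRCm38.p6. Capitals mark an exact match to the p53 consensus half-site, searched on both strands. The stretches of Ccng1, Mdm2 and Phlda3 run from position -250 to -101 relative to the start, and the Aen stretch from -131 to -102. They lie at chr11:40755387-40755536 on the minus strand for Ccng1, chr10:117710859-117711008 on the minus strand for Mdm2, chr1:135765835-135765984 on the plus strand for Phlda3 and chr7:78895927-78895956 on the plus strand for Aen.
Ccng1: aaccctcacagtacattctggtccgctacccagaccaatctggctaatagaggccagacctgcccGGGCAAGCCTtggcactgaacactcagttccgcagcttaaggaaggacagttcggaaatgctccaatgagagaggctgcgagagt
Mdm2: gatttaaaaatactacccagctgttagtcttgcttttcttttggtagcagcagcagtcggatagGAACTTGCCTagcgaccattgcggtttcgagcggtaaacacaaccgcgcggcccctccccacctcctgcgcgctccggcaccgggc
Phlda3: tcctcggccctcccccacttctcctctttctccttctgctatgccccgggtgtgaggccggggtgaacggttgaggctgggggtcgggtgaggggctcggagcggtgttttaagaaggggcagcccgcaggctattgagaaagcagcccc
Aen: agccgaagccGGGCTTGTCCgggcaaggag

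An exact half-site was present in a window of 3 of these 5 members, Ccng1, Mdm2 and Aen, against 9.55% of the 27025 genes with a window. Counted by window, 4 of the 8 member windows held one, among them both Aen windows, which overlap and hold the same site, against 8.36% of all 32851 windows in the table. In Ccng1 the half-site began at -185 and, together with the 10 bases just before it, matched the paired 20-base consensus at 19 bases. A pair matching at least 19 bases, with up to 13 bases between its parts, was found in 1.09% of all windows. The Phlda3 window and the 3 Bbc3 windows held no exact half-site, which says only that these letters are not in those windows. The best-known p53 sites of Mdm2 lie in its first intron, outside the window shown.

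The mean raw signal per probe ranged from 560 to 845 over the 6 arrays, with the highest on TDA1, and precision is limited by having 3 arrays a group. No detection p-values were used, so a probe could not be called above background, and dim probes are described by their rank among all probes. Of 10 epithelial markers, 9 had a probe and 8 passed the filter on dim probes, which kept probes whose mean exceeded the median of all. The mean log2 level over these 9 markers was 10.98 to 11.53 on the TMA arrays and 10.73 to 10.83 on the TDA arrays, without overlap, and its part in the differences below was not tested. The markers were uneven, with log2 differences of 1.89 for Cldn4, 1.14 for Spint1, 0.71 for Cldn3 and 0.47 for Cdh1. Only Spint1 passed in limma (adjusted p = 0.0436), and the Cldn4 groups overlapped (limma adjusted p = 0.0571). For Krt18, Krt8 and Krt7 the differences were 0.30, 0.23 and 0.09, and for Krt19 and Cldn7 -0.02 and -0.06. Krt19 was the epithelial marker below the filter, at percentile 3.6 of all probes, so its small difference says little. Most markers of other cells lay below the filter: 9 of 10 fibroblast markers, 6 of 8 leukocyte, 6 of 8 endothelial and 4 of 5 adipocyte markers. Among leukocyte genes the general marker Ptprc, the T cell gene Cd3e and also Itgam, Adgre1, Lyz2 and Tyrobp were below the filter. Cd14 was bright on every array, and Csf1r passed the filter at percentile 67.9 of all probes. The mean levels of these 4 lists overlapped between the groups, at 6.74 to 6.84 on TMA and 6.65 to 6.84 on TDA for fibroblasts, 7.58 to 7.92 and 7.74 to 7.94 for leukocytes, 6.63 to 7.01 and 6.76 to 6.85 for endothelium and 6.61 to 6.87 and 6.80 to 7.03 for adipocytes. In RNA from a whole culture, fewer cells that express a gene and less RNA per cell cannot be told apart.

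None of the 8 measured p53 genes differed between the groups at an adjusted p of 0.05 in limma, against 3.43% of 8963 tested genes. The 5 members Phlda3, Trp53inp1, Mdm2, Ccng1 and Zmat3 had higher means on the TMA arrays, by 0.45 to 0.96 on the log2 scale. Of the 8 measured genes, 4 had an unadjusted p under 0.05 in limma, all of them higher. Among the 8963 tested genes 900 were higher at that level, and 19.3% reached it in either direction. Bbc3, Aen and Pmaip1 differed by 0.12, 0.04 and -0.10, and 0 members were lower at an unadjusted p under 0.05. Over the 8 genes the median difference was 0.49, beside a median of -0.0046 over all tested genes. The 8 were represented by their probes with the highest mean, and all 8 of these passed the filter, as did 15 of the 19 member probes.

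**Figure D1:**
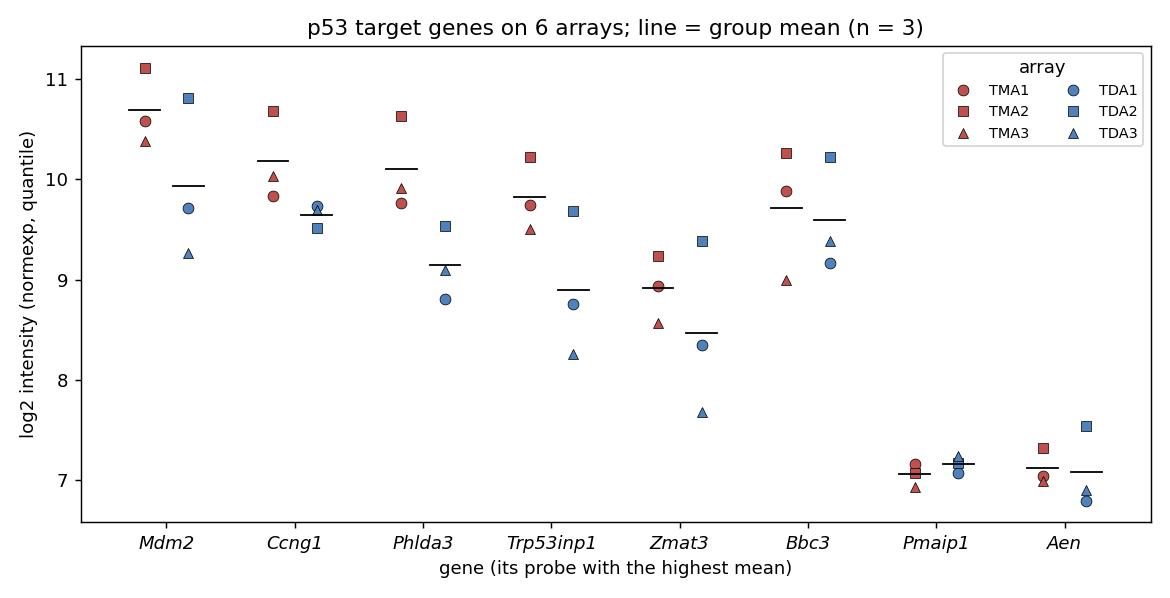
Log2 intensity (vertical axis) of the 8 measured genes on each of the 6 arrays, TMA in red and TDA in blue, with replicate numbers as symbols and group means (n = 3) as lines. Heights are comparable within a gene and not between genes, and TMA2 is the highest TMA array for 7 of the 8 genes.

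Mdm2, the ubiquitin ligase that holds p53 down and is itself a p53 target, read 10.59, 11.12 and 10.39 in TMA1 to TMA3, then 9.71, 10.82 and 9.26 in TDA1 to TDA3 (log2 intensity, probe ILMN_1250774). TDA2 lay above TMA1 and TMA3, so the groups overlapped. The means were 10.70 ± 0.38 and 9.93 ± 0.80 (SD, n = 3 each). The log2 difference was 0.77 with a 95% interval of 0.02 to 1.52 (limma, adjusted p = 0.258). A second Mdm2 probe had the same order of groups with a smaller difference, 0.47 (limma adjusted p = 0.522). The third was dim, at percentile 56.7 of all probes by mean level, and differed by 0.04 (limma adjusted p = 0.95). Without TDA2 the first probe differed by 1.21 (limma adjusted p = 0.0134), and without TDA3 by 0.43.

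Ccng1 encodes cyclin G1, which recruits a phosphatase to Mdm2 and is among the most consistent p53 targets in mouse cells. It read 9.84, 10.68 and 10.03 in TMA1 to TMA3, then 9.73, 9.52 and 9.70 in TDA1 to TDA3 (log2 intensity, probe ILMN_2500276). Every TMA array lay above every TDA array, TMA1 by the narrowest margin. The log2 difference was 0.54 with a 95% interval of 0.01 to 1.06 (limma, adjusted p = 0.254). The other Ccng1 probes differed by 0.66 and 0.33 (limma adjusted p of 0.295 and 0.608), and on both of them the groups overlapped. TMA2 carried much of the difference, which was 0.29 without that array. On this probe TDA2 was the lowest array, whereas on the second probe it was the highest of the TDA arrays.

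Phlda3, a pleckstrin-homology protein that competes with Akt for membrane lipids and so restrains Akt, showed the largest difference of the 8 genes with all 6 arrays, although Trp53inp1 exceeded it in 4 of the 6 omissions of 1 array. It read 9.77, 10.64 and 9.92 in TMA1 to TMA3, then 8.81, 9.53 and 9.09 in TDA1 to TDA3 (log2 intensity, probe ILMN_2923607). All TMA values lay above all TDA values. The means of 10.11 ± 0.46 and 9.15 ± 0.37 (SD, n = 3 each) gave a log2 difference of 0.96, or 1.95-fold, with a 95% interval of 0.38 to 1.55 (limma, adjusted p = 0.0749). The second Phlda3 probe also differed by 0.96 (limma adjusted p = 0.154), and there TDA2, at 9.58, exceeded both TMA1 and TMA3. Leaving out 1 array moved the difference between 0.70 and 1.16, with limma adjusted p = 0.0488 without TMA1 and 0.0216 without TDA2.

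Trp53inp1 encodes a stress-induced nuclear protein that helps p53 to be phosphorylated and also takes part in autophagy. Its brighter probe, ILMN_2506012, read 9.75, 10.22 and 9.51 in TMA1 to TMA3, then 8.75, 9.68 and 8.26 in TDA1 to TDA3 (log2 intensity). TDA2 exceeded TMA3, so the groups overlapped. The log2 difference was 0.93, or 1.90-fold, with a 95% interval of 0.22 to 1.63 (limma, adjusted p = 0.144). The dimmer probe differed by 0.39 (limma adjusted p = 0.440). Without TDA2 the brighter probe differed by 1.32 (limma adjusted p = 0.00809), and without TDA3 by 0.61.

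Zmat3, also called Wig1, is a zinc-finger RNA-binding protein that acts on the splicing and stability of transcripts. It read 8.94, 9.24 and 8.56 in TMA1 to TMA3, then 8.34, 9.38 and 7.68 in TDA1 to TDA3 (log2 intensity, probe ILMN_2418426, its only probe). The highest and the lowest value both belonged to TDA arrays, TDA2 and TDA3. The log2 difference was 0.45 with a 95% interval of -0.33 to 1.22 (limma, adjusted p = 0.572), and it was 0.05 without TDA3, 0.29 without TMA2 and 0.91 without TDA2.

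The other 3 measured members, Bbc3, Pmaip1 and Aen, showed no such offset between group means. Bbc3 encodes PUMA, a BH3-only protein that frees Bax and its relatives to permeabilise mitochondria. Its brightest probe, ILMN_2920736, read 9.88, 10.26 and 9.0 in TMA1 to TMA3, then 9.17, 10.22 and 9.39 in TDA1 to TDA3 (log2 intensity). TMA2 and TDA2 were nearly equal at the top, and TMA3 was the lowest of the 6. The log2 difference was 0.12 with a 95% interval of -0.61 to 0.86 (limma, adjusted p = 0.901), an interval that still holds the differences seen for Mdm2 and Ccng1. It was -0.15 without TMA2 and -0.09 without TDA1. The second probe differed by 0.07 (limma adjusted p = 0.907), and the third, which fell below the filter, by -0.18.

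Pmaip1, which encodes the BH3-only protein NOXA that neutralises Mcl1, was dim. It read 7.16, 7.08 and 6.94 in TMA1 to TMA3, then 7.07, 7.17 and 7.24 in TDA1 to TDA3 (log2 intensity, probe ILMN_2670625), at percentile 55.2 of all probes. The 6 values spanned little and overlapped, with a log2 difference of -0.10 and a 95% interval of -0.52 to 0.31 (limma, adjusted p = 0.842). Its other probe fell below the filter and differed by -0.05.

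Aen, an exonuclease that degrades DNA and RNA during apoptosis, was dim as well. It read 7.04, 7.32 and 6.99 in TMA1 to TMA3, then 6.80, 7.54 and 6.90 in TDA1 to TDA3 (log2 intensity, probe ILMN_2924088). The replicate 2 arrays were the highest of both groups. The log2 difference was 0.04 with a 95% interval of -0.48 to 0.55 (limma, adjusted p = 0.952), and its other 2 probes, both below the filter, differed by -0.18 and -0.07. Because the scale adds an offset of 50 to the signal, differences of dim probes such as those of Pmaip1 and Aen are shrunk. With an offset of 16 the differences were -0.14 for Pmaip1 and 0.06 for Aen (limma adjusted p of 0.813 and 0.936).

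**Figure D2:**
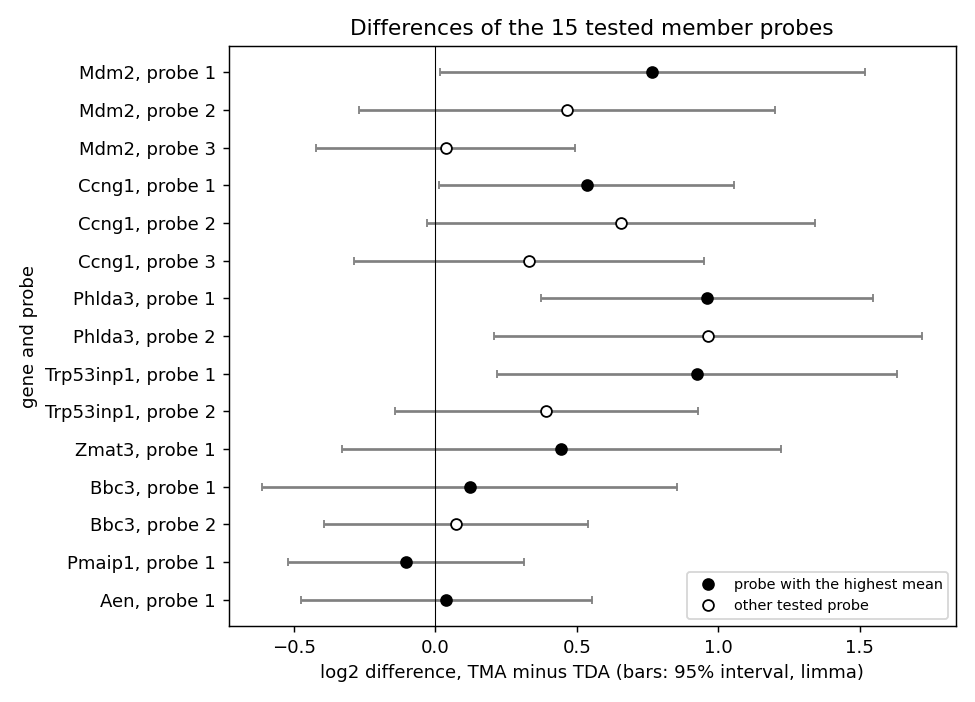
Log2 difference of TMA minus TDA (horizontal axis) for the 15 tested member probes, with 95% intervals from limma, numbered by brightness within a gene. The probe with the highest mean is filled, and 14 of 15 differences are above 0, while the widest offsets are the 2 Phlda3 probes at 0.96. The 4 member probes below the filter, all with negative differences, are not drawn.

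Of the 15 tested member probes, 14 had a positive difference and 1 a negative one, while 49.4% of all 12848 tested probes were positive. The 4 member probes below the filter all had negative differences, -0.18 for Bbc3, -0.05 for Pmaip1, and -0.18 and -0.07 for Aen. An unadjusted p under 0.05 was reached by 5 of the 15, against 18.5% of tested probes in either direction. None passed the adjusted threshold in limma, against 3.01%. Groups did not overlap for 2 of the 8 genes, Phlda3 and Ccng1, both with TMA higher, against 12.4% of tested genes in that direction. Several probes read the same transcript, so their agreement in sign is not independent.

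The spread within groups followed the arrays. TMA2 was the highest of the 3 TMA arrays for 12 of the 15 tested member probes, against 34.1% of all tested probes, and TDA2 was the highest of the 3 TDA arrays for 10 of 15, against 37.9%. The mean over the 8 genes was 9.12, 9.57 and 8.92 in TMA1 to TMA3, then 8.55, 9.23 and 8.44 in TDA1 to TDA3 (log2 intensity). On this average TDA2 lay above TMA1 and TMA3, so the groups overlapped. The gap between TDA2 and TDA3, 2 arrays of the same group, was wider than the difference between the group means for Mdm2, Trp53inp1, Zmat3, Bbc3 and Aen.

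**Figure D3:**
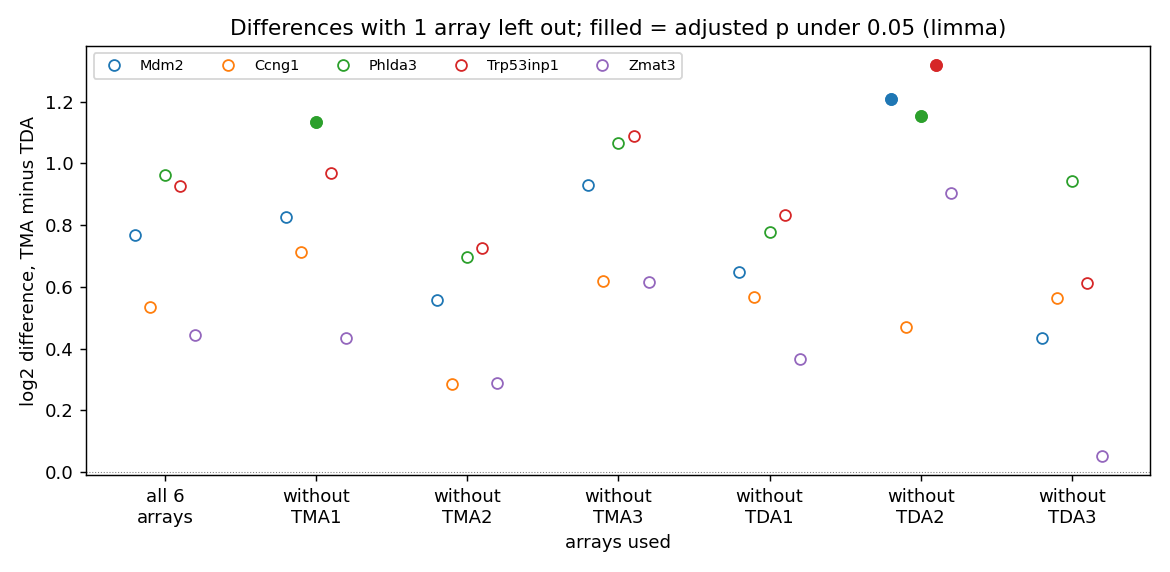
Log2 difference of TMA minus TDA (vertical axis) for Mdm2, Ccng1, Phlda3, Trp53inp1 and Zmat3 with all 6 arrays and with each array left out in turn, filled where the limma adjusted p was under 0.05. These genes had the largest differences among the measured members with all 6 arrays. All their differences stay above 0, from 0.05 for Zmat3 without TDA3 to 1.32 for Trp53inp1 without TDA2. Filled points appear only without TMA1 and without TDA2. Bbc3 and Aen, not drawn, changed sign in some omissions.

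With 1 array left out, limma called Phlda3 alone without TMA1, and Mdm2, Trp53inp1 and Phlda3 without TDA2. It called 0 members without TMA2, TMA3, TDA1 or TDA3. The same omissions moved the count over the whole array from 387 probes to 698 without TMA1 and 633 without TDA2, and to 26, 3, 0 and 125 without TMA2, TMA3, TDA1 and TDA3.

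Likeness to the Mdm2 profile was computed from 1 probe a gene, with no test of differences between r values. As a description over 6 arrays that share 1 chip and 1 normalization, Trp53inp1 had a Pearson r of 0.99 with Mdm2 and Zmat3 one of 0.96. Phlda3, Aen and Bbc3 had an r of 0.83, 0.79 and 0.71 with Mdm2, Ccng1 had 0.51 and Pmaip1 had -0.29. The genes most like Mdm2 among 8962 were Usp20, a deubiquitinating enzyme, Tfpt, a subunit of a chromatin remodelling complex, and Nhsl1, a regulator of cell migration, each with an r of 0.99. Of the 8962 genes, 56 had an r over 0.95 with Mdm2, and by r Trp53inp1 had rank 7 and Zmat3 rank 38. With so few arrays each r is imprecise.

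Other genes of the p53 pathway, grouped into 5 lists, gave 0 calls in limma among the 43 of 63 listed genes that could be tested, with 9 at an unadjusted p under 0.05, 5 of them higher and 4 lower. Over all 8963 tested genes 19.3% reached that level, 900 of them higher and 828 lower, and this is the background for the count in each list below. The median log2 difference of the 43 was 0.09, and 28 of them were positive, against 49.3% of all tested genes. Groups did not overlap for 3 of the 43 with TMA higher and for 2 with TMA lower. Over all 8963 tested genes these counts were 1112 and 1021.

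Among 15 tested regulators of p53, 0 passed in limma, 0 were higher and 2 lower at an unadjusted p under 0.05, and the median log2 difference was -0.00071. Chek2, a kinase that phosphorylates p53 after DNA breaks, read 7.40, 7.73 and 7.51 in TMA1 to TMA3, then 8.10, 8.22 and 7.95 in TDA1 to TDA3 (log2 intensity). Its groups did not overlap, and the difference was -0.54 (limma adjusted p = 0.163). Sirt1, a deacetylase that acts on p53, differed by -0.53 with overlapping groups (limma adjusted p = 0.248), and by -0.34 without TDA1.

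Of 5 tested targets that halt the cell cycle, 0 passed in limma and 1 was lower at an unadjusted p under 0.05, with a median log2 difference of 0.16. Cdkn1a, which encodes the CDK inhibitor p21 and is the best-known p53 target, read 12.26, 13.38 and 12.11 in TMA1 to TMA3, then 11.61, 12.30 and 11.84 in TDA1 to TDA3 (log2 intensity). TDA2 again reached into the TMA range, and the difference was 0.67 with a 95% interval of -0.02 to 1.36 (limma adjusted p = 0.289). Without TMA2 it was 0.27. Gtse1, a protein of the G2 and S phases that exports p53 from the nucleus, differed by -0.77 (limma adjusted p = 0.268), with TMA3 at 8.27 far below the other 5 arrays, and by -0.26 without TMA3.

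Of 9 tested targets linked to cell death, limma called 0, and 0 reached an unadjusted p under 0.05, with a median log2 difference of 0.09. The tetraspanin gene Cd82 differed by 0.34 and the BH3-only gene Bid by -0.33 (limma adjusted p of 0.469 and 0.589). Cd82 differed by 0.51 without TMA2 and by 0.23 without TMA1. Bid differed by -0.14 without TMA2 and -0.17 without TDA1, and by -0.52 without TMA1 and -0.60 without TDA2. With all 6 arrays the 9 differences lay between -0.33 and 0.34.

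Of 6 tested targets in DNA repair, 0 passed in limma and 2 were higher at an unadjusted p under 0.05, with a median log2 difference of 0.37. Xpc, which recognises bulky lesions in nucleotide excision repair, read 8.99, 9.35 and 9.02 in TMA1 to TMA3, then 8.32, 8.58 and 8.40 in TDA1 to TDA3 (log2 intensity). Its groups did not overlap and its replicates lay close together, with a difference of 0.69 and a 95% interval of 0.25 to 1.13 (limma adjusted p = 0.0872). Polk, a polymerase that copies past damaged bases, differed by 0.60 (limma adjusted p = 0.179), also without overlap, and by 0.39 without TMA2.

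Of 8 tested targets in metabolism and stress, 0 passed in limma, 3 were higher and 1 lower at an unadjusted p under 0.05, and the median log2 difference was 0.26. Ephx1, an epoxide hydrolase that detoxifies reactive epoxides, read 11.42, 12.03 and 11.50 in TMA1 to TMA3, then 10.73, 11.15 and 10.75 in TDA1 to TDA3 (log2 intensity). All TMA arrays lay above all TDA arrays, and the difference was 0.77 with a 95% interval of 0.27 to 1.27 (limma adjusted p = 0.0928). It was called only when TDA2 was left out among the omissions of 1 array, at 0.91 (limma adjusted p = 0.0424). Lif, a cytokine that p53 controls in the mouse uterus, differed by -1.15 (limma adjusted p = 0.222), and TDA2 at 11.90 stood far above the 2 other TDA arrays at 9.66 and 9.64. Without TDA2 the difference was -0.40. The Lif groups did not overlap by a small margin, with TMA3 at 9.638 and TDA3 at 9.644.

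**Figure D4:**
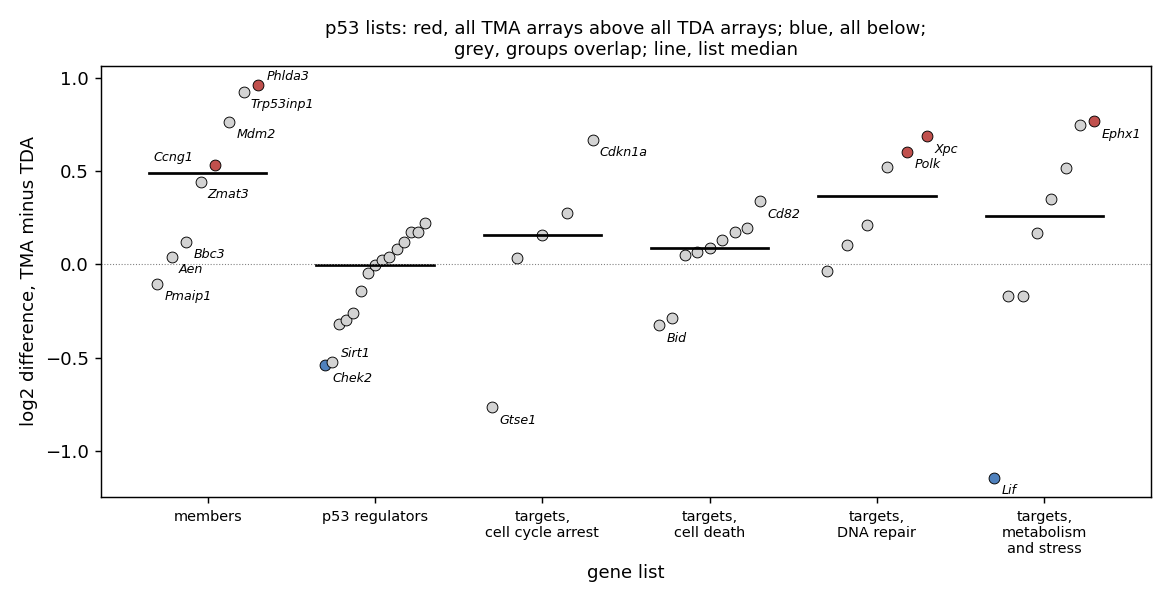
Log2 difference of TMA minus TDA (vertical axis) for each tested gene of the members and of 5 other p53 lists, red where every TMA array lay above every TDA array, blue where every one lay below and grey where groups overlapped, with list medians as lines. Phlda3, Ccng1, Xpc, Polk and Ephx1 are red, Chek2 and Lif are blue, and the list medians run from -0.00071 for regulators to 0.49 for the members.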

How the data were processed

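Total RNA of 3 TMA and 3 TDA samples, grouped by title, was extracted with Trizol and carried through Illumina's standard labelling, per the labels' protocols. The raw table deposited by the authors gives an intensity for each probe on each array, not normalized; no background had been subtracted, as its lowest values were 148 to 175. Another deposited table has log2 values, which the authors had normalized between arrays; how is not given in the sources used here. All 6 arrays came from 1 chip, with the groups in separate positions, so position and group cannot be told apart.

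Intensities were corrected by normexp with an offset of 50, quantile-normalized and converted to log2 in limma 3.58.1 (R 4.3.3). Probe symbols came from the platform annotation: 23846 probes had 1 symbol, 0 several and 1851 none. Probes with a mean above the median of all probes were tested, 12848 in all, and the probe with the highest mean stood for its gene, giving 8963 genes. The two-sided comparison used lmFit and eBayes; p-values were adjusted by Benjamini and Hochberg's method over the tested probes, with 0.05 as the threshold; intervals are at the 95% level. The procedure was tested on simulated data with independent noise for each probe and array. Those data lack spread that probes share on an array, so they do not show how the procedure handles it.

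The members and the lists were chosen with earlier results of these data known. The rule for named genes took all members, and from each other list up to 3 called genes with the largest difference or, with none called, the 2 with the smallest p. It also took the 3 genes most like Mdm2 by Pearson r. Same-numbered TMA and TDA arrays deviated from their group means with correlations of 0.126, 0.013 and 0.027 over tested probes. For differently numbered arrays the correlations were -0.100 to 0.062. These values did not settle whether equal numbers are pairs, and the main comparison did not take them as pairs. The alternatives were 15 planned settings, the other probes of each member and 1 setting chosen after seeing the data, which left out replicate 2 of both groups. Plots were made in Python 3.11.15 with matplotlib 3.10.9.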

Additional observations from a re-analysis of the deposited data

How the results depend on the processing

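Limma called 387 probes as reported, 232 with the stricter filter above the 75th percentile, 200 when no background was corrected, 135 from the authors' table and 129 after median scaling. With arrays left out the count ran from 0, where 1869 probes had an unadjusted p under 0.05, to 698. The number of member genes called was 0 in every setting that kept all 6 arrays except the replicate block, and 0 to 3 with arrays left out. With the replicate number as a block, a pairing that remains unsettled, limma called 524 probes and 2 members. These were Phlda3 (limma adjusted p = 0.0303) and Trp53inp1 (limma adjusted p = 0.0426). The members' median difference ranged from 0.36 to 0.65 over settings that kept all arrays and from 0.24 to 0.91 with arrays left out. Both upper ends came from fewer genes. The 0.65 was with the stricter filter, which dropped Pmaip1 and Aen, and the 0.91 was without TDA2, where Aen was not tested. Without replicate 2 of both groups, Mdm2 (1.0, adjusted p = 0.0408) and Trp53inp1 (1.12, adjusted p = 0.0236) were called, and the cell death median was -0.0075. The stricter filter gave medians of 0.10 for regulators and 0.17 for metabolism and stress, with fewer genes tested. With arrays left out, medians ranged from -0.094 to 0.086 for regulators, -0.098 to 0.28 for cell cycle arrest, -0.0075 to 0.16 for cell death (-0.0073 without TMA2) and 0.25 to 0.59 for DNA repair, and genes called in metabolism and stress from 0 to 1. Bbc3 ranged from -0.15 to 0.48 with arrays left out, negative without TMA2 (-0.15) or TDA1 (-0.092), and its dimmest probe read -0.18. Aen ranged from -0.092 to 0.10, negative without TMA2 (-0.066), TDA1 (-0.092) or TDA3 (-0.055), and its other probes read -0.18 and -0.072. In 2 of the 7 omissions Aen fell below the filter. The cause of these changes was not tested. Precision is set by having 3 arrays a group, and no detection p-values were used.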
